A study of Homo sapiens with 4 samples.

Results

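The genes described here are those named TTC and a number, for the tetratricopeptide repeat, apart from TTC28 itself. They were taken as the protein-coding rows of the deposited table whose symbol is TTC followed by a digit, and 39 of its 58735 genes met that rule. The comparison asks whether any of them changed in level where TTC28 had been targeted. The cells were H1299, which derive from a non-small cell lung carcinoma, and were left untreated. Wild-type cells gave 2 libraries, and cells labelled TTC28 knockout, edited with CRISPR/Cas9, another 2. The labels do not say whether the knockout cells were a single clone or a pool, nor whether replicates came from separate cultures, so p-values measure only the spread between these libraries.

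The tetratricopeptide repeat is a short helix-turn-helix unit that stacks in tandem into a curved surface on which other proteins dock. Proteins with it mostly serve as scaffolds and adaptors, and genes that share the TTC name share the repeat rather than a pathway. Among them are subunits of intraflagellar transport, which moves cargo along cilia, co-factors of the heat shock chaperones, scaffolds of membrane and RNA-decay complexes, and a ubiquitin ligase.

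The library totals ranged from 25120500 to 28885443 counts, and edgeR's quasi-likelihood test was run on the 13079 genes that reached 1 FPKM in 2 or more libraries (FPKM counts fragments relative to both the length of a gene and the size of the library). Mitochondrially encoded genes took 6.07% and 5.87% of the counts in wild-type replicates 1 and 2 and 8.61% and 10.2% in knockout replicates 1 and 2. With library sizes taken without those genes, the counts of TTC genes called higher and lower below were the same, 5 and 6. The keratin genes KRT8 and KRT18 and the mesenchymal gene VIM were above 1 FPKM in all 4 libraries, while the lung lineage genes NKX2-1, SFTPB and SFTPC were at most 0.0567 FPKM. None of 12 multiciliated airway cell markers reached 1 FPKM in 2 libraries, and their summed level ranged from 2.14 to 2.19 FPKM in wild type and from 2.41 to 2.44 FPKM in the knockout, with DNAI2 and TEKT1 at 0. None of 4 markers of blood, vessel and connective tissue cells reached 1 FPKM either. The highest multiciliated marker was CAPS, at 0.755 and 0.815 FPKM in wild type and 0.946 and 1.10 FPKM in the knockout. CCDC40, DNAH5, DNAI1 and RSPH1 had lower means in the knockout, so the sum does not describe the markers as a set. TTC28 itself (chromosome 22, 27978014 to 28679865, minus strand) was at 4.88 and 5.44 FPKM in wild type and still at 2.96 and 2.99 FPKM in the libraries labelled knockout, 1.73-fold lower (edgeR adjusted p = 2.78e-06). The edit itself cannot be seen in gene counts, and fewer cells with the transcript cannot be told apart from less of it per cell.

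Most TTC genes that were expressed did so at low to moderate levels. Of the 39 genes, 12 averaged at least 5 FPKM over the 4 libraries, 12 averaged from 1 to 5 FPKM, and 2, TTC22 and TTC24, had no count in any library. TTC1, which encodes a binding partner of the chaperone HSP70, was the most abundant per length, at 33.1 and 31.1 FPKM in wild type and 32.4 and 30.4 FPKM in the knockout. The next in order of mean level, TTC19 and TTC37, lay between 9.83 and 11.9 FPKM in every library and overlapped each other. TTC28 stood among the genes of middle rank, at 3.16% of the summed FPKM of all TTC genes in wild type and 1.88% in the knockout.

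**Figure D1:**
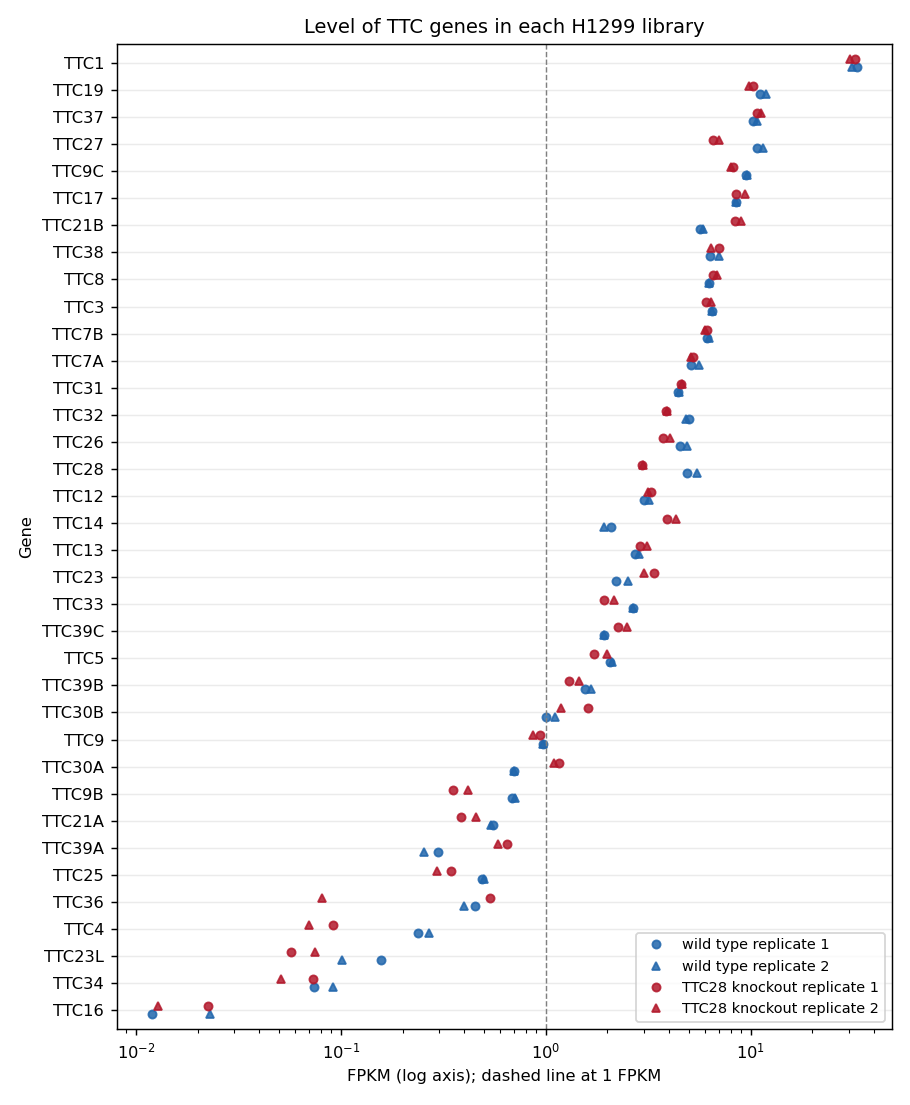
Level in FPKM (log axis) of TTC28 and of the 35 other TTC genes with a count in every library, one row a gene; blue points are wild-type and red points knockout libraries, with circles for replicate 1 and triangles for replicate 2. TTC14, TTC21B, TTC23, TTC30A and TTC39A have both knockout points to the right of both wild-type points, and TTC27, TTC28, TTC9B and TTC4 both to the left.

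TTC genes moved in both directions beside the fall of TTC28. Of the 39 genes, 25 could be tested, of which 5 rose, 6 fell and 14 did not pass (Benjamini-Hochberg adjusted p under 0.05 over the 13079 genes). The share of all tested genes called higher was 25.1% and the share called lower 25.2%, beside 20% and 24% of the 25 TTC genes, shares near that background. Among the protein-coding genes tested, 55% were called, 27.2% higher and 27.8% lower. TTC14, TTC30A, TTC21B, TTC23 and TTC39C rose, and TTC27, TTC33, TTC32, TTC26, TTC9C and TTC19 fell. The median log2 fold change over the 25 genes was 0.01, against 0.00 over all tested genes, and the median size of a change was 0.19 against 0.27. Both knockout libraries lay above both wild-type libraries in 11 of the 25 genes and below them in 9, while 37.6% and 37.9% of all tested genes did so, 75.5% in all. Fewer genes were called without 1 library: 3 rose and 1 fell without wild-type replicate 1, 4 and 2 without wild-type replicate 2, 5 and 4 without knockout replicate 1, and 5 and 5 without knockout replicate 2. In the same order 16%, 24%, 36% and 40% of the TTC genes were called, beside 37.1%, 38%, 49.4% and 47.2% of all tested genes. DESeq2 called 4 higher and 2 lower, 24% beside 42.2% of all tested genes. With FPKM rescaled to a common sum per library (TPM), where the median of all tested genes moved to -0.16, limma called 2 higher and 7 lower, against 25.5% higher among all genes called there and 49.9% here.

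Summed over the 39 genes, the FPKM values came to 157 and 159 in wild-type replicates 1 and 2 and to 155 in each knockout library, or 158 ± 1.79 FPKM (SD, n = 2) against 155 ± 0.176 FPKM (SD, n = 2). The groups did not overlap, and the knockout was lower by 3.15 FPKM, beside a loss of 2.19 FPKM for TTC28 alone. As a share of all counts the 39 genes held 0.0991% and 0.101% in wild type and 0.0955% and 0.0986% in the knockout. In CPM after TMM scaling they summed to 978 and 993 in wild type and 985 and 1018 in the knockout, values that overlapped. The share of counts and the CPM sum the same counts and differ only in library scaling, while FPKM also weights genes by length. The direction of the sum thus depends on library scaling and on how genes are weighted. No test was made on the sums, since the smallest exact permutation p with 2 libraries a group is 0.333.

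For the 14 tested genes that did not pass, the fit still limits how large a rise could have been. The upper end of the 95% interval of the fold change lay under 1.5 for 13 of them, with the highest of the 13 in TTC13 (interval 0.909 to 1.27). The exception was TTC30B (1.01 to 1.75). A rise of 1.73-fold, the factor by which TTC28 fell, lay within the interval of TTC30B, and above the upper end for the other genes that did not pass. These are limits on the fold, not on a gain in FPKM, which also depends on the level of a gene. TTC1 averaged 32.1 FPKM in wild type, and TTC28 5.16 FPKM.

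**Figure D2:**
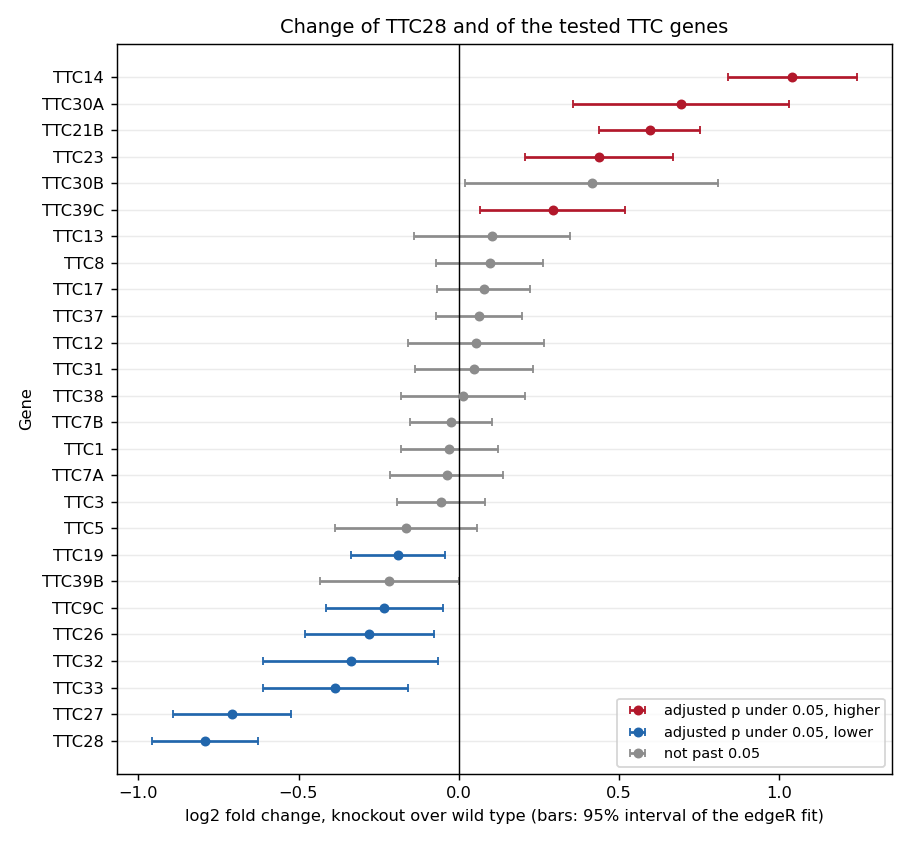
Log2 fold change, knockout over wild type, of TTC28 and of the 25 tested TTC genes, with 95% intervals from the edgeR fit as bars; red and blue mark genes called higher and lower at an adjusted p under 0.05, grey those that did not pass. TTC14 is at the top at 1.04 and TTC27 is the lowest after TTC28, at -0.71.

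Among the 25 tested genes the largest fold rise was that of TTC14, whose product carries an S1 RNA-binding domain beside its repeats. TTC14 (ENSG00000163728, hg38 chromosome 3, 180602130 to 180617828, plus strand) was at 2.07 and 1.93 FPKM in wild type, giving replicate 1 first, and at 3.92 and 4.32 FPKM in the knockout. Both knockout libraries lay above both wild-type libraries, and the gene was 2.06-fold higher (95% interval 1.79 to 2.37, edgeR adjusted p = 1.54e-06). It was the one TTC gene tested that changed at least 2-fold with an edgeR adjusted p under 0.05, as did 5.21% of all tested genes. The gene shares 5.13% of its exonic bases with CCDC39 on the opposite strand, and CCDC39 had 4, 7, 8 and 15 counts in the order wild type 1, wild type 2, knockout 1 and knockout 2, against 423, 410, 850 and 822 for TTC14. In FPKM the gain of TTC14 was 2.12, beside a gain of 2.93 for TTC21B and losses of 2.19 for TTC28 and 4.31 for TTC27. A link between these changes was not tested.

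Among the 25 tested genes the largest fold fall was that of TTC27. TTC27 (ENSG00000018699, chromosome 2, 32628032 to 32821051, plus strand) was at 10.7 and 11.5 FPKM in wild type and at 6.54 and 7.02 FPKM in the knockout, with no overlap. It was 1.63-fold lower (log2 fold change -0.71, SE 0.0852, edgeR adjusted p = 1.84e-05), and its loss of 4.31 FPKM was the largest change in level of any TTC gene, TTC28 included. None of its exonic bases is shared with another gene of the annotation.

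Genes of intraflagellar transport changed in both directions. TTC21B, a subunit of the IFT-A complex that returns cargo from the tip of the cilium, was at 5.65 and 5.83 FPKM in wild type and at 8.35 and 8.97 FPKM in the knockout. It rose 1.51-fold (interval 1.36 to 1.69, edgeR adjusted p = 2.07e-05), and its gain of 2.93 FPKM was the largest of the TTC genes. TTC21B (chromosome 2, 165857475 to 165953843, minus strand) shares 6.95% of its exonic bases with TTC21B-AS1 on the opposite strand, which had 1, 0, 7 and 7 counts against 1115, 1197, 1755 and 1652 for TTC21B. Its paralog TTC21A was below the filter, at 0.552 and 0.540 FPKM in wild type and 0.388 and 0.459 FPKM in the knockout. TTC26, of the IFT-B complex that carries cargo outward, was at 4.53 and 4.91 FPKM in wild type and at 3.73 and 4.05 FPKM in the knockout. It fell 1.21-fold (edgeR adjusted p = 0.0237). That call was lost in DESeq2 and in limma on log2(FPKM + 1) and on log2(FPKM + 0.1). TTC26 also did not pass without either wild-type library or without knockout replicate 1.

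TTC30A and TTC30B encode another IFT-B subunit and are genes of 1 exon each with similar coding sequences, both on chromosome 2 (177612992 to 177618966 and 177548998 to 177553014, minus strand). Their coding sequences have 1998 bases each and are 96.0% identical, with 80 differences and the longest identical run at 272 bases, so that some reads fit both. The stretch of 90 coding bases below (positions 91 to 180 counted from the start codon, chr2:177618522-177618611 and chr2:177552584-177552673, minus strand, GENCODE release 29 transcripts) shows the usual spacing, with the bases that differ in capitals.
TTC30A: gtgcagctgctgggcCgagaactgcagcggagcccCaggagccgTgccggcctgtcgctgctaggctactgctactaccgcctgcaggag
TTC30B: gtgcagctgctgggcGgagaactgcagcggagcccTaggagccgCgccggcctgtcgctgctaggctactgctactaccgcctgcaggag
Of the 50-base words in the transcript of TTC30A, 10.6% also occur in TTC30B, and 15.8% the other way round, so that the split of counts between them is uncertain. TTC30A was at 0.696 and 0.701 FPKM in wild type and at 1.16 and 1.10 FPKM in the knockout. It passed the filter only through the knockout libraries, where it is high, so that its call (1.62-fold, edgeR adjusted p = 0.00236) was favoured by the filter, and with a filter on the mean of all 4 libraries it was not tested, leaving 4 TTC genes higher and 6 lower (25% and 25.2% of all genes tested there, 50.2% together). TTC30B was at 0.998 and 1.11 FPKM in wild type and at 1.60 and 1.19 FPKM in the knockout, higher in both knockout libraries but with an edgeR adjusted p = 0.0746. It passed without knockout replicate 2 (adjusted p = 0.0183 in edgeR). The counts of both genes together gave a log2 fold change of 0.56 (edgeR adjusted p = 0.00231), higher in 2 of 2 knockout libraries.

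Of the other TTC genes tied to cilia, TTC23 rose, TTC8, TTC17 and TTC12 did not pass, and the rest were below the filter. TTC8, a subunit of the BBSome, the coat that sorts membrane proteins of the cilium, was at 6.27 and 6.26 FPKM in wild type and at 6.54 and 6.83 FPKM in the knockout (1.07-fold, edgeR adjusted p = 0.314). TTC17, which acts on actin and cilium formation, had a 95% interval of 0.955 to 1.17, and TTC12, needed for the dynein arms of motile cilia, one of 0.897 to 1.20. TTC23, which localises to the base of the cilium with the Ellis-van Creveld proteins, was at 2.20 and 2.53 FPKM in wild type and at 3.38 and 3.02 FPKM in the knockout. It rose 1.36-fold (edgeR adjusted p = 0.00394), without overlap of the groups, and had an adjusted p of 0.0694 in edgeR without wild-type replicate 1. Its paralog TTC23L and the axonemal genes TTC25 and TTC29 stayed below 0.5 FPKM in every library.

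The chaperone co-factor TTC1, the membrane scaffolds TTC7A and TTC7B and the RNA-decay factors TTC37 and TTC5 did not pass, and the chaperone co-factors TTC4 and TTC36 were below the filter. TTC1 had a fold change of 0.980 (interval 0.882 to 1.09). TTC7A and TTC7B, alternative scaffolds of the complex that places the lipid kinase PI4KA at the plasma membrane, lay at 0.974 (0.863 to 1.10) and 0.984 (0.900 to 1.08), and TTC7B was the higher of the pair in all 4 libraries, at 5.99 to 6.22 FPKM against 5.10 to 5.58. TTC37, the scaffold of the Ski complex that feeds RNA into the cytoplasmic exosome, was at 10.3 and 10.7 FPKM in wild type and at 10.7 and 11.2 FPKM in the knockout (1.04-fold, 0.952 to 1.15). TTC5, which recognises nascent tubulin and starts the decay of tubulin mRNA, was at 2.06 and 2.11 FPKM in wild type and 1.72 and 2.0 FPKM in the knockout. Its fold change of 0.893 did not pass (edgeR adjusted p = 0.200), although it did without knockout replicate 2 (adjusted p = 0.0347 in edgeR).

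Small falls were called for TTC19, TTC9C and TTC32. TTC19, a mitochondrial protein that keeps respiratory complex III in working order, was at 11.0 and 11.9 FPKM in wild type and at 10.2 and 9.83 FPKM in the knockout, 1.14-fold lower (edgeR adjusted p = 0.0339). TTC9C was at 9.51 and 9.62 FPKM in wild type and at 8.21 and 8.03 FPKM in the knockout, 1.18-fold lower (edgeR adjusted p = 0.0348). TTC32 was at 5.00 and 4.81 FPKM in wild type and at 3.85 and 3.90 FPKM in the knockout, 1.26-fold lower (edgeR adjusted p = 0.0403). In each the groups did not overlap, yet the calls were lost in DESeq2 (adjusted p = 0.0776, 0.120 and 0.146). Each was also lost without wild-type replicate 1 (edgeR adjusted p = 0.0623, 0.138 and 0.189), without wild-type replicate 2 (0.247, 0.161 and 0.103) and without knockout replicate 2 (0.0924, 0.0610 and 0.0684), and TTC32 without knockout replicate 1 as well (0.0968). TTC33, at 2.66 and 2.65 FPKM in wild type and 1.91 and 2.15 FPKM in the knockout, was 1.31-fold lower (edgeR adjusted p = 0.00761), with an adjusted p of 0.0514 without wild-type replicate 1.

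Values of TTC31, TTC38 and TTC13 lay close together. TTC31 was at 4.41 and 4.46 FPKM in wild type and 4.56 and 4.60 FPKM in the knockout, TTC38 at 6.35 to 6.97 and 6.43 to 6.98 FPKM, and TTC13 at 2.71 to 2.85 and 2.87 to 3.10 FPKM. None of the 3 passed (edgeR adjusted p = 0.661, 0.908 and 0.461).

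The TTC39 genes differed among themselves. TTC39B, which promotes turnover of the sterol receptor LXR, was at 1.56 and 1.65 FPKM in wild type and at 1.30 and 1.46 FPKM in the knockout, a fold change of 0.861 that did not pass (edgeR adjusted p = 0.0895) but did without knockout replicate 2 (adjusted p = 0.0272 in edgeR). TTC39C was at 1.93 FPKM in both wild-type libraries and at 2.24 and 2.48 FPKM in the knockout, and rose 1.23-fold (edgeR adjusted p = 0.0321). That call was lost in DESeq2 (adjusted p = 0.107) and without wild-type replicate 1, wild-type replicate 2 or knockout replicate 2 (0.133, 0.151 and 0.137 in edgeR). TTC39A was below the filter in every library, at 0.298 and 0.255 FPKM in wild type and 0.648 and 0.586 FPKM in the knockout. Its counts of 73, 65, 169 and 134 corresponded to 2.25-fold more after scaling (exact Clopper-Pearson limits at 95%, 1.83 and 2.77, which cover counting error only), with both knockout libraries above both wild-type libraries.

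Below 1 FPKM lay 14 genes that were not tested, and a filter at 0.1 FPKM brought 8 of them into the fit. Over the 33 genes tested at that setting, 6 were called higher and 8 lower, beside 16.9% and 18.1% of all genes tested there. TTC39A was among those called higher, 2.22-fold (edgeR adjusted p = 0.000253) beside 2.04-fold for TTC14 in that fit. TTC9B and TTC4 were among those called lower, 1.82-fold and 3.12-fold (edgeR adjusted p = 0.0432 and 0.0123) beside 1.65-fold for TTC27. TTC9B had 42, 45, 23 and 24 counts. TTC4, a co-chaperone of HSP90, passed that filter only through wild type, with 22, 26, 9 and 6 counts, 3.13-fold lower in the knockout by summed counts after scaling (exact Clopper-Pearson interval 1.72 to 6.01, counting error only). Only 47.6% of the exonic bases of TTC4 are its own, because the read-through gene MROH7-TTC4 covers the rest on the same strand, and MROH7-TTC4 had 0, 0, 1 and 0 counts. The treatment of reads in shared bases is not stated in any source used here, and the level of TTC4 is uncertain for that reason. TTC36 had 12, 11, 15 and 2 counts, and its knockout libraries differed more from each other than the groups did. TTC9 was just under the filter, at 0.973 and 0.971 FPKM in wild type and 0.935 and 0.871 FPKM in the knockout, and TTC34 had 17, 22, 18 and 11 counts. TTC6, TTC16 and TTC29 had from 0 to 4 counts in each library. For TTC22 and TTC24, a count of 0 allows up to 0.0203 and 0.0434 FPKM in the shallowest library (3 counts, counting error only).

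The log2 fold changes of most tested TTC genes, whether or not they passed, had the sign of the genes beside them. For each tested gene, the median log2 fold change of up to 25 tested genes on each side, called the local median, was taken from the same fit. Near chromosome ends there were fewer, 42 neighbours in all for TTC23 and 27 for TTC5. Among the 25 TTC genes, 20 had the sign of their local median and 5 the opposite sign, while 61.1% of the 13070 tested genes with a local median had the sign of theirs. All 7 TTC genes of chromosome 2 were tested, and they show the range: TTC32, on the short arm, had a local median of -0.70, and TTC30A, TTC30B and TTC21B on the long arm had 0.32, 0.30 and 0.34. With the local median taken off in the fit, 7 TTC genes were called higher and 3 lower, beside 24.1% and 23.4% of all tested genes, 47.4% together.

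With the local median removed, TTC14 (0.86), TTC23 (0.39), TTC21B (0.26), TTC27 (-0.60), TTC9C (-0.32) and TTC19 (-0.20) kept their direction and their call. TTC33 on chromosome 5 came to -0.02 from -0.39, and TTC30A, TTC39C and TTC26 no longer passed (edgeR adjusted p = 0.0668, 0.286 and 0.0714). TTC32 turned from -0.34 to 0.36 (edgeR adjusted p = 0.0320). TTC3, a ubiquitin ligase whose gene lies in the Down syndrome region of chromosome 21, was at 6.44 and 6.50 FPKM in wild type and 6.02 and 6.42 FPKM in the knockout. Its neighbours had a median of -0.45, and with that removed TTC3 was at 0.39 (edgeR adjusted p = 0.000251). On the TPM scale TTC3 passed in the opposite direction (-0.21, limma adjusted p = 0.0473). TTC8 and TTC31, which did not pass in any other setting tried, passed with the local median removed, at 0.24 and 0.30. What neighbouring genes share was not tested.

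**Figure D3:**
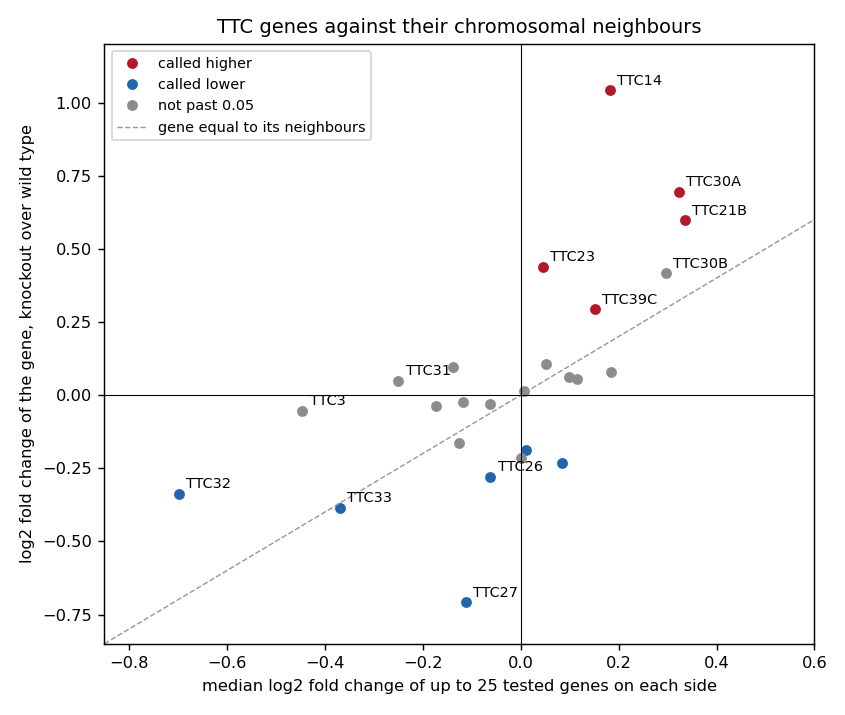
Log2 fold change of each of the 25 tested TTC genes (vertical axis) against the median log2 fold change of up to 25 tested genes on each side of it (horizontal axis), both knockout over wild type; red and blue mark genes called higher and lower, and the dashed line is where a gene equals its neighbours. TTC33 lies on the line, TTC14 far above it and TTC27 far below it, and TTC32 and TTC3 are above it on the left.

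Promoters were read for the genes whose call held in every setting that tested them, TTC14, TTC27 and TTC21B, to show the sequence from which they start. RefSeq promoters (GRCh38.p14, 250 bases before to 50 after the start) were matched for 35 of the 39 genes. The motifs searched on both strands were the E-box, spelled CACGTG, the CCAAT box, the TATA box, spelled TATAAA, the GC box, spelled GGGCGG, the ETS motif, spelled CCGGAAGT, and the X-box of RFX factors. None of these spellings lies within another. The upstream bases, outside every annotated exon of the gene, are given with matches in capitals. They are chr3:180601913-180602129 (plus strand), chr2:32627800-32628031 (plus strand) and chr2:165953844-165954026 (minus strand).
TTC14: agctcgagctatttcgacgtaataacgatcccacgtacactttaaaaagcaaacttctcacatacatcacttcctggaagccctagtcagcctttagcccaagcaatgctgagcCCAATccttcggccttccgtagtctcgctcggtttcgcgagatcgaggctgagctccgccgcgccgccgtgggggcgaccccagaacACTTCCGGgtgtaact
TTC27: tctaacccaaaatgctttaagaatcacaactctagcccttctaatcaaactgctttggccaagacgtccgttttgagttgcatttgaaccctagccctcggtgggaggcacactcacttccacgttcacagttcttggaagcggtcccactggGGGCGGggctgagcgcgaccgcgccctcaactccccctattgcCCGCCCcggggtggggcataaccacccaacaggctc
TTC21B: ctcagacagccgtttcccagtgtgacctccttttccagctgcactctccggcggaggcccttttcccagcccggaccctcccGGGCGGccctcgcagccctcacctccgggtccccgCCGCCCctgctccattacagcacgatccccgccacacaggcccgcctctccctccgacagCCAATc
The TTC14 piece holds CCAAT and an ETS match on the minus strand, that of TTC27 a pair of GC boxes, and that of TTC21B a pair of GC boxes and CCAAT. An ETS match occurs in 4.14% of the 35116 RefSeq promoters, CCAAT in 34.6% and a GC box in 45.0%. The 35 matched TTC genes have 44 promoters in the table, of which 23 held CCAAT (52.3%), 22 a GC box, 6.82% an E-box, 6.82% a TATA box and 4.55% an ETS match, where 7.26% and 11.5% of all promoters hold an E-box and a TATA box. The X-box was found in 1 of the 44, that of TTC30A (1.31% of all RefSeq promoters), just after its RefSeq start (chr2:177618719-177618748, minus strand). In GENCODE release 29 TTC30A starts further upstream, at 177618966, so these bases lie inside its exon there.
TTC30A: gttgccctGTTGCCGTGGTAACcgcacgca
A match of letters is a description and shows no binding.

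Genes of the complexes that the TTC proteins belong to were set beside them, from lists of partners. Of 129 tested partners, 33 rose and 37 fell, beside 25.1% and 25.2% of all tested genes called higher and lower. Of 6 tested IFT-A genes, 1 rose and 3 fell, among them WDR35, at 7.26 FPKM on average in wild type and 4.50 FPKM in the knockout (log2 fold change -0.69, SE 0.0779), on the part of chromosome 2 with TTC32 (local median -0.57). With the local median removed WDR35 was at -0.12 (edgeR adjusted p = 0.228). Of 14 tested IFT-B genes, 2 rose and 3 fell, with IFT80 higher (0.50) and IFT57 (-0.62), IFT74 (-0.49) and IFT22 (-0.34) lower. The cilium genes thus had members in both directions in each complex, with medians of -0.10 and 0.03. Of 6 tested BBSome genes, 2 rose, BBS2 (0.22) and BBS9 (0.31), and 0 fell, the other tested genes not passing.

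Of 14 tested genes of the Ski complex and the exosome, the partner list of TTC37, 0 rose and 8 fell, beside 25.1% and 25.2% of all tested genes. The median was -0.23, and 12 of the 14 had a negative log2 fold change. All the falls called were of exosome subunits. The Ski complex genes SKIV2L (-0.03) and WDR61 (-0.10) did not pass (edgeR adjusted p = 0.726 and 0.412). EXOSC5, a core subunit of the exosome, was at 58.4 FPKM in wild type and 41.1 FPKM in the knockout (-0.50, SE 0.0667), and EXOSC3 (-0.64), EXOSC6 (-0.51) and EXOSC4 (-0.55) fell too. Of 6 tested genes around PI4KA, 3 rose and 2 fell, with EFR3A (0.33) and FAM126B (0.52) higher and FAM126A (-0.46) and TMEM150A (-0.69) lower. Of 14 tested complex III genes, 2 rose and 5 fell, with UQCC1 (0.39) and UQCRC2 (0.30) higher and UQCRQ (-0.45) and UQCRC1 (-0.25) lower.

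Of 10 tested alpha and beta tubulin genes, whose mRNA is the substrate of the TTC5 route, 3 rose and 2 fell. TUBB6 (0.72), TUBA1A (0.64) and TUBB4A (0.93) were higher and TUBB2B (-0.46) lower; tubulin genes resemble one another, and reads can be shared between them. Of 3 genes that act with TTC5 in tubulin mRNA decay, 1 rose, CNOT11 (0.22), and the others did not pass. Among 20 tested heat shock chaperone and co-chaperone genes, 6 rose and 5 fell, led by FKBP4 (-0.73), HSPA8 (0.62), TOMM34 (-0.49) and HSPA1B (0.60), the last of which is near-identical to HSPA1A. Genes of other names that carry the repeat, 48 of them tested, had 14 rises and 13 falls and a median of 0.05, with SH3TC2 (0.96) and RANBP2 (0.55) higher and FKBP4 and TOMM34 lower. They and the TTC genes were called at 56.2% and 44%, beside 50.3% of all tested genes.

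**Figure D4:**
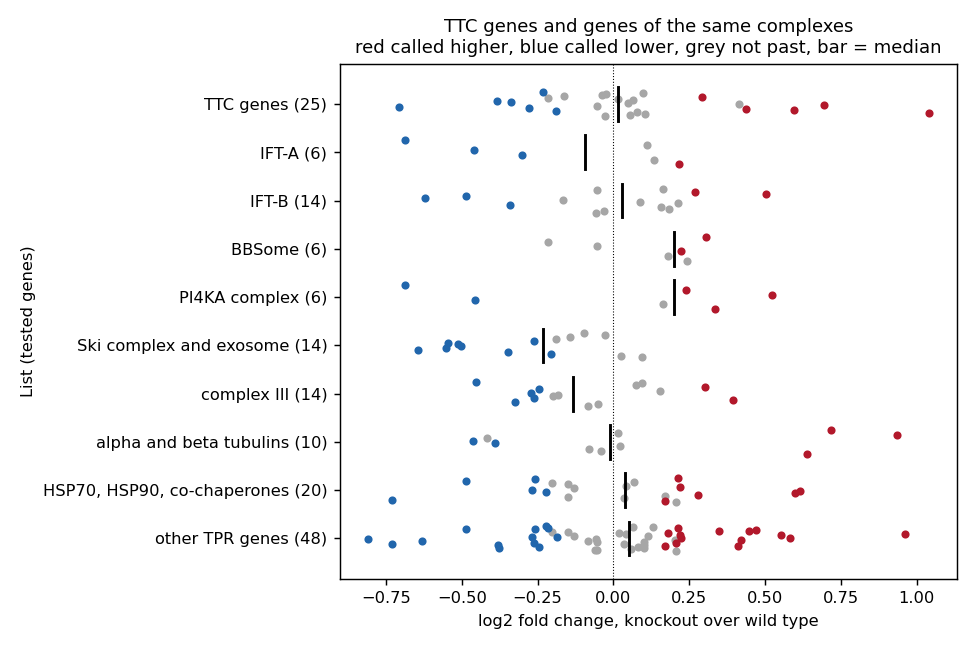
Log2 fold change, knockout over wild type, of the tested TTC genes and of the tested genes of each partner list with at least 5 of them, 1 point a gene and the number tested in brackets; red and blue mark genes called higher and lower, grey those that did not pass, and the black bar is the list's median. The TTC genes and the other repeat genes spread to both sides of 0, and the Ski complex and exosome has its median at -0.23.

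In the authors' deposited table, whose test is not named, 5 of the 39 genes were higher and 2 lower at an adjusted p under 0.05. The share of all genes called there was not computed, so these counts cannot be set against a background. Those higher were TTC14, TTC21B, TTC23, TTC30A and TTC39A, and those lower were TTC27 and TTC33. Log2 fold changes of the 25 tested genes in the authors' deposited table differed from the edgeR values by at most 0.0167.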

How the data were processed

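The 4 libraries were made from H1299 RNA with a TruSeq kit, per the labels. The submitters' processing notes name HISAT2 2.0.5 and the build hg38. Which program counted the reads, with which annotation and strand setting, is not given in the sources used. The authors deposited a raw count per gene and library, per the file headers, and FPKM values made with the gene length in the table, which equals the merged exon length in GENCODE release 29 for TTC genes. Their mean signal per group was not used, and their deposited log2 fold change, p-value and adjusted p-value served only for comparison.

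Counts were tested with edgeR 4.0.16 (R 4.3.3, TMM, two-sided, no covariate), with adjustment over the 13079 genes that reached 1 FPKM in 2 or more libraries. Standard errors and 95% intervals come from that fit; in TTC genes the standard error ranged from 0.0595 to 0.183. Replicates differed by more than counting noise (chi-square per gene of 4.05 in wild type and 8.56 in the knockout). Overlaps used GENCODE release 29, and shared words of 50 bases its transcripts. Named were TTC28, every TTC gene, and up to 4 genes of each partner list by smallest p. SKIV2L and WDR61 were named as well, to show the Ski complex beside the exosome. The genes and lists were chosen with earlier results of these data known. Alternatives were other filters, scalings and tests (limma 3.58.1, DESeq2 1.42.0), a replicate block, leaving out each library and removing the local median; a TPM scale, a filter on the mean and sizes without mitochondrial genes were added after seeing the data. Some genes of the marker and partner lists are not reported here. The tests were tested on simulated data.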

Additional observations from a re-analysis of the deposited data

How the results depend on the processing

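TTC14, TTC21B and TTC27 kept their direction and call in every setting that tested them, and TTC28 kept its own (log2 fold change -0.88 to -0.63). The TTC genes called higher, 5 here, were 1 at a filter of 5 FPKM (12 tested). They were 3 in limma on log2(FPKM + 0.1) and 2 on the TPM scale. Those called lower, 6 here, were 2 at 5 FPKM, 2 in DESeq2 and 3 with the local median removed. In both directions together, 25% of the TTC genes were called at 5 FPKM, beside 58% of all genes tested there. In limma on log2(FPKM + 0.1) the shares were 28% and 42.9%, and on the TPM scale 36% and 47.4%. Partner genes called higher, 33 here, were 21 with total-count scaling, 21 and 20 in limma with pseudocounts of 1 and 0.1, 9 on the TPM scale and 21 to 32 without 1 library. Over all genes, 2169 were higher and 2177 lower at 5 FPKM, where fewer genes are tested, and 1582 higher on the TPM scale; total-count scaling gave 2706 higher and 4051 lower, 40% higher among calls. The labels do not say whether the replicate numbers pair the libraries. The correlation of same-numbered deviations was 0.0235, and with 2 pairs it cannot settle this. With the number as a replicate block the calls were 5 higher and 6 lower, and TTC28 was at -0.79. That was 44% of the TTC genes, beside 54.3% of all tested genes. Directions that turned, apart from TTC32 to 0.36 with the local median removed, were of genes not past the threshold. With the local median removed these were TTC1 (0.033), TTC12 (-0.061), TTC17 (-0.11), TTC3 (0.39, then past it), TTC37 (-0.036), TTC7A (0.13) and TTC7B (0.095). With total-count scaling they were TTC12 (-0.011), TTC31 (-0.016), TTC37 (-0.0022) and TTC38 (-0.051), and on the TPM scale TTC12 (-0.10), TTC13 (-0.055), TTC17 (-0.087), TTC31 (-0.11), TTC37 (-0.10), TTC38 (-0.15) and TTC8 (-0.067). Without 1 library, TTC1 ranged from -0.080 to 0.017, TTC38 from -0.050 to 0.075 and TTC7A from -0.10 to 0.021. The causes were not tested. Under 1 FPKM the filter, not few counts, kept TTC9, TTC39A and TTC21A (518, 441 and 393 summed counts) from the test; depth limits genes such as TTC4, with 63.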

Other observations

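The table also holds 10 noncoding rows named TTC and a digit, 7 of them with a count. TTC28-AS1, on the strand opposite TTC28, had 243 and 258 counts in wild-type replicates 1 and 2 and 412 and 359 in knockout replicates 1 and 2 (log2 fold change 0.66, SE 0.110, edgeR adjusted p = 0.000278). It passed the filter of 1 FPKM only through the knockout libraries, where it is high, which favoured its call; at a filter of 0.1 FPKM its edgeR adjusted p was 0.000439. It was higher in 2 of 2 knockout libraries, and 7.38% of the exonic bases of TTC28 are shared with it. TTC3P1, a processed pseudogene of TTC3 on chromosome X, had 105, 138, 102 and 55 counts, and 7.47% of the 50-base words of TTC3 also occur in it, so that its counts may include reads of TTC3. At a filter of 0.1 FPKM its edgeR adjusted p was 0.0529. TTC41P had 49, 22, 38 and 21 counts and TTC39C-AS1 had 6, 9, 7 and 10. TTC39DP, a unitary pseudogene, had 3 and 6 counts in wild type and 0 in both knockout libraries, too few for a fold.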
